A study of Mus musculus with 31 samples.

Results

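The state of the hippocampus 28 days after injection of a vector that makes neurons a target of CD8 T cells was measured by bulk RNA-seq in 8 of the 31 mice of the series. They were chosen by their labels: all 4 mice that had received rAAV-hSyn-OVA-mCherry (the rAAV-OVA group: D661, D667, D845 and D844) and all 4 that had received rAAV-hSyn-mCherry (the rAAV-control group: D843, D851, D705 and D706) with a time point of 28d. All 8 were adult OT-I/Rag-/- mice. Because lymphocytes need RAG1 to assemble antigen receptors, the T cells of these mice carry the OT-I receptor, which recognises a fragment of ovalbumin (OVA) on H-2Kb, an MHC class I molecule. The vector was injected into dorsal CA1 on both sides, and every injected mouse was given the analgesic ketoprofen. The hSyn promoter restricts expression largely to neurons, so the groups differed in OVA and shared mCherry, the surgery and the transgenic T cells. The left hippocampus of each mouse made 1 library. The labels place D661, D667, D705 and D706 in batch 1 and D845, D844, D843 and D851 in batch 2.

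CD8 T cells recognise peptides on MHC class I molecules and kill the cells that show them, through granzymes and perforin, and they release interferon-gamma. Interferon-gamma makes surrounding cells raise antigen presentation, guanylate-binding proteins and chemokines that draw in further T cells and monocytes. In the hippocampus such an attack on neurons is known to leave reactive astrocytes, activated microglia, lost pyramidal neurons and seizures, the picture of limbic encephalitis with hippocampal sclerosis. Cells that stay after the acute phase may include tissue-resident T cells, which carry CD103 (Itgae) and CD69.

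The 8 libraries held between 22523788 and 28917226 counts, against 19046977 to 57407902 over the series. The table lists 15648 genes, of which 824 have no symbol. The authors left out genes that did not reach 15 counts in 15 or more of the mice sequenced. Transcripts confined to the 12 rAAV-OVA mice of days 5, 8 and 28 could not pass that filter, and of 20 genes listed for CD8 T cells 10 are in the table. A gene near 0 in the control mice entered the table largely through rAAV-OVA mice and so was bound to differ. For lists with many such genes, those of T cells, other lymphocytes and monocytes (8 of 15 monocyte genes were below 15 counts in at least 1 control of day 28), counts and medians describe the genes listed and support nothing beyond that. By the same measure, reactive astrocytes (5 of 19), disease-associated microglia (4 of 20) and the interferon-gamma response (4 of 24) hold some such genes. So do type I interferon (3 of 15), complement (2 of 15), NF-kB (2 of 15), cell cycle (2 of 14), MHC class I (2 of 9) and class II (2 of 8). Their counts and medians include genes bound to differ. Levels are given as CPM (counts per 1000000 counts of the library), scaled with TMM factors, which ran from 0.953 to 1.11 in these mice. Values for rAAV-OVA mice are given in the order D661, D667, D845 and D844, and for rAAV-control mice in the order D843, D851, D705 and D706.

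Of the rAAV-OVA libraries, D844 stood apart. Genes of striatal medium spiny neurons, a cell type of the striatum and not of the hippocampus, summed to 3160 CPM over 13 genes in D844 and to between 164 and 315 CPM in each of the 30 other mice of the series, and all 13 were highest in D844. Penk, which encodes enkephalin, stood at 16.2, 19.1, 18.9 and 668 CPM in the rAAV-OVA mice and between 24.5 and 27 CPM in the controls. The dopamine receptor genes Drd1 and Drd2 stood at 92.5 and 99.9 CPM in D844 and at most at 5.17 CPM in the 7 other mice of day 28. Both were called with D844 (log2FC 2.31 and 2.66) and not without it (-0.73 and 0.14), nor without the control D843 or D851. Genes of forebrain excitatory neurons were low in the same library, with Neurod6 at 7.69 CPM against 120 to 188 CPM in the controls. Genes of dentate granule cells summed to 453 CPM in D844 against 560 to 682 CPM in the controls, with C1ql2 inside the control range (62.1 CPM against 59 to 76 CPM) and Lct (18.1 CPM against 63 to 76.1 CPM) and Prox1 (98.1 CPM against 118 to 147 CPM) below it. The tissue label of D844 is hippocampus, and the striatal list was drawn up after its values were seen. The part of these transcripts in the results was not tested, so counts of DEGs, and values that D844 changes most, are given with and without it. D845, the other rAAV-OVA mouse of batch 2, stood apart in genes of vessels and connective tissue, with Vwf at 303 CPM against 28.8 to 36.8 CPM in the other rAAV-OVA mice. Choroid plexus genes, which come with the ventricle wall at dissection, were uneven in both groups, summing to 70.9 CPM in D705 and 5420 CPM in D845. Genes of ependyma summed to 59.3, 34.5, 102 and 159 CPM in the rAAV-OVA mice against 15.4 to 44.8 CPM in the controls. Those of thalamus and habenula summed to 156, 130, 209 and 301 CPM against 119 to 185 CPM. The part of such tissue in the results was not tested.

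In a principal component analysis of the 8 mice, the first component held 70.4% of the variance. It placed the controls between 47.1 and 71.4, D661, D667 and D845 at -90.8, -43.4 and -107, and D844 at 10.9. The second component, with 12.6%, set D844 at 64.5 apart from all others.

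Genes were called differentially expressed (DEGs) by edgeR's quasi-likelihood test at a Benjamini-Hochberg FDR of 0.05 or lower with a log2 fold change (log2FC, rAAV-OVA against rAAV-control) of at least 0.66 in size. By this limit 2430 genes (15.5% of the 15648) were increased and 954 (6.1%) decreased, and the median log2FC of all genes was 0.01. Leaving out D844 gave 2805 increased (17.9%) and 1047 decreased genes (6.69%), with 2334 and 688 of them shared with the full comparison, 0 in the opposite direction and an all-gene median of 0.02. Of the increased DEGs, D844 was the rAAV-OVA mouse nearest to the controls for 81.9% and lay within their range for 25.4%, and D845 was farthest from them for 60.5%. Of the decreased DEGs, D667 was nearest for 68.1% and D845 farthest for 67.4%. The decreased genes rested most on D845: without it 305 were called, and 1860 increased genes were. Within batch 1 alone 1719 genes were increased and 246 decreased, and within batch 2 alone 2927 and 1489. These calls use a spread shared by all mice of the series. With the day 28 mice alone 1282 genes were increased and 345 decreased. Groups did not overlap for 29% of all genes.

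**Figure D1:**
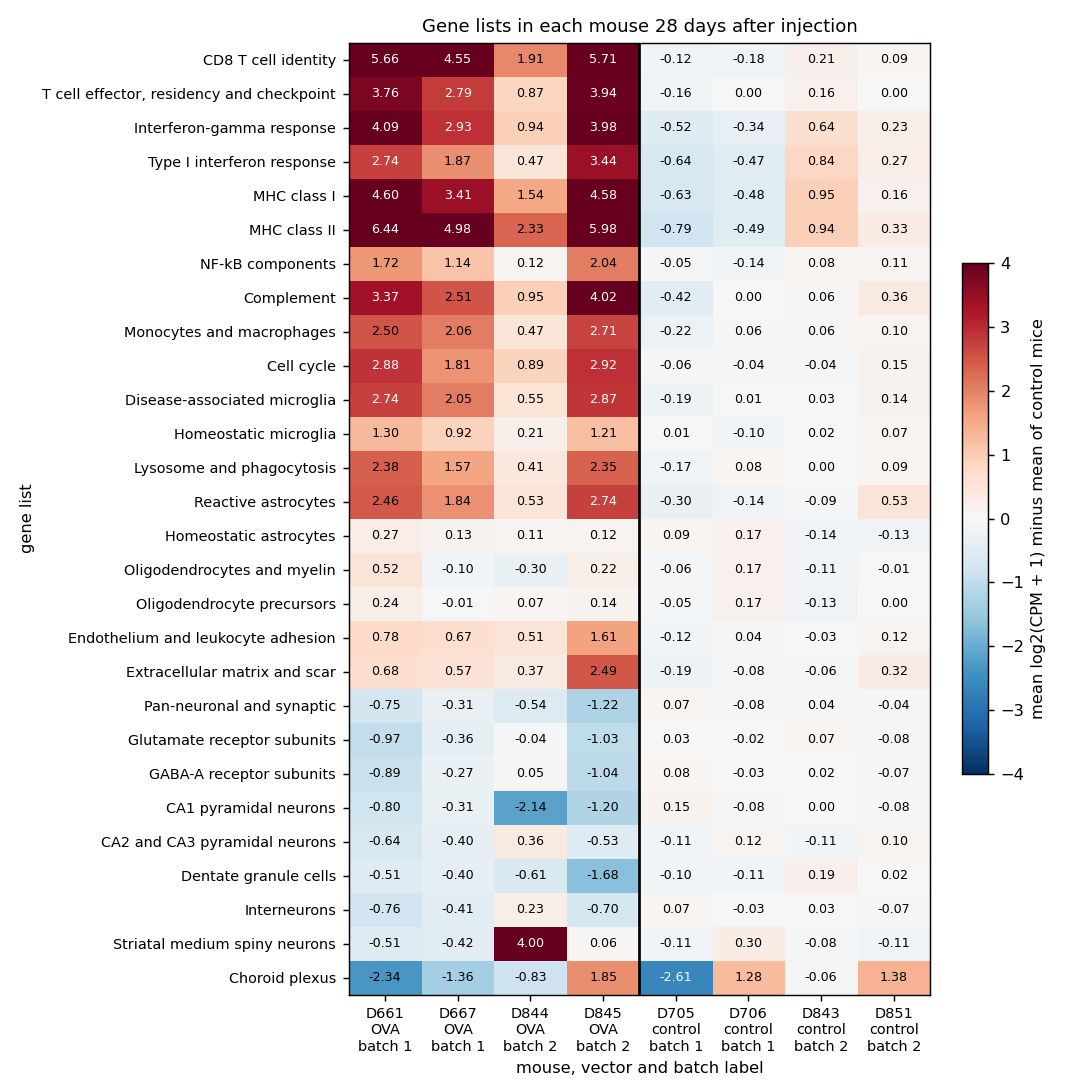
Colour gives, for each gene list (rows) and each mouse of day 28 (columns, with vector and batch label), the mean log2(CPM + 1) of the list's genes minus the mean of the 4 control mice. The T cell, MHC and interferon lists are high in D661, D667 and D845 and less so in D844 (CD8 T cell identity 5.66, 4.55, 5.71 and 1.91), and the striatal list stands out in D844 at 4.

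Among the 10 increased genes with the largest change at a mean of at least 5 CPM and without overlap between groups, 9 are described here. Most were near 0 in the controls, so the filter on low counts bears on which genes these are. Cd8a, the CD8 alpha chain, stood at 168, 79.1, 171 and 6.28 CPM in the rAAV-OVA mice and at 0.346, 0.201, 0.146 and 0.0458 CPM in the controls. The groups did not overlap, and the log2FC was 9.1 (SE 1.07, FDR 1.23e-05) with all mice and 9.69 (SE 0.85) without D844. Trbv12-1, a variable segment of the Vβ5 family to which the OT-I receptor belongs, stood at 183, 80.9, 191 and 10.8 CPM and at 0.885 CPM or less in every control. The T cell receptor beta constant gene Trbc2 reached 445, 193, 482 and 25.6 CPM against 0.732 to 1.39 CPM (log2FC 8.03, SE 0.88). Gpr171, a receptor of lymphocytes, had no count in any control and 15.8, 8.46, 18.3 and 0.552 CPM in the rAAV-OVA mice, so its mean was at least 89.4-fold higher than the level of 3 counts in a control library (0.121 CPM). Xcl1, the chemokine by which activated CD8 T cells attract cross-presenting dendritic cells, rose by a log2FC of 8.8. Ccr7, a chemokine receptor of naive and central memory T cells, changed by 7.46. The remaining 3 were Ly6i (9.53), Plbd1 (7.26) and the complement gene Cfb. Bulk RNA cannot tell more cells of a type from more RNA per cell, here or in any result that follows.

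Of the 20 genes of CD8 T cell identity listed, 10 are in the table, and 6 of these were below 15 counts in at least 1 control of day 28, so no count over them is given. Their log2FC ran from 2.9 to 9.1 (median 6.85, and 7.36 without D844). The other 4, Trac, Trbc2, Lck and Zap70, had 15 counts or more in every control of day 28. Lck, the kinase of the CD4 and CD8 co-receptors, stood at 74.8, 37.5, 70.6 and 3.9 CPM against 0.732 to 0.922 CPM (log2FC 5.82). Il2rb, the receptor chain for IL-2 and IL-15, changed by a log2FC of 6.86. The T cell receptor alpha constant gene Trac, which has no symbol in the table and was matched by its identifier, rose by a log2FC of 5.45. In summed level, this list reached 1400, 632, 1480 and 86.3 CPM in the rAAV-OVA mice and 17.2 CPM or less in every control.

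Of 27 genes of T cell effector function, residency and checkpoints 16 are in the table, and 12 of these were below 15 counts in at least 1 control of day 28. Their median log2FC was 5.83. The residency integrin Itgae stood at 50.2, 18.2, 45.8 and 1.76 CPM against 0.11 to 0.441 CPM (log2FC 6.84, SE 0.89, FDR 2.4e-05), and its transcription factor Runx3 rose by a log2FC of 7.14. Cd69, which holds T cells in tissue, stood at 8.05, 6.41, 20.3 and 0.621 CPM against at most 0.385 CPM. Granzyme genes were at low levels: Gzmb stood at 8.57, 5.04, 6.41 and 0.586 CPM and in the controls at 0.808, 0.201, 0 and 0.0915 CPM. D844 lay inside the control range for Gzmb, whose log2FC was 4.1 (FDR 0.00206) and 4.65 without D844. Gzma reached 5.07 CPM at most (log2FC 6.04). The checkpoint receptor gene Lag3 stood at 160, 86.9, 166 and 26 CPM against 8.15 to 13.1 CPM (log2FC 3.44), and Havcr2, which encodes TIM-3 and is also expressed by microglia, rose by 2.28. In the controls Lag3 stood well above Cd8a (at most 0.346 CPM), and which cells express Lag3 was not tested. Cd274, the gene of the ligand PD-L1, rose by 3.81, with D844 at 9 CPM just under the highest control at 9.2 CPM. Tox, a transcription factor of exhausted T cells that neurons also express, had a log2FC of 0.73 (FDR 0.063) with all mice and was called without D844 (0.85, FDR 0.0359).

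Few markers of other lymphocytes are in the table. Of 6 B cell genes 2 are listed. Ighm, the immunoglobulin heavy chain gene, stood at 88.2, 36.3, 75 and 11.1 CPM against 7.32 to 10.7 CPM. By the study's account, these RAG1-deficient mice form no mature T or B cells with endogenous receptors. Ighm is therefore not read here as a marker of mature B cells, and the source of its RNA was not tested. Cd79b stood at 3.08 CPM or less and, like Klrk1 and Il2ra, was below 15 counts in at least 1 control of day 28. Klrk1, the gene of NKG2D, a receptor shared by natural killer and CD8 T cells, rose by a log2FC of 5.94. Il2ra, the IL-2 receptor alpha chain, was the only gene of the CD4 T cell list in the table and rose by 5.43, while Cd4 itself was not among the genes analysed here. Of 7 neutrophil genes 2 are in the table. Csf3r, the receptor gene for G-CSF, which monocytes also express, was increased (44.8, 21.6, 37.8 and 8.45 CPM against 3.48 to 6.42 CPM, log2FC 2.49), and S100a8 was not called (1.27, FDR 0.356), at 0.916 CPM or less in all 8 mice.

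Antigen presentation and interferon genes rose without exception in the lists examined. All 9 MHC class I genes (median log2FC 4.12) and all 8 MHC class II genes (median 6.69) were increased, with and without D844, and the groups overlapped for none of them. H2-Q6 and H2-Q7 of class I and Ciita and H2-Oa of class II were below 15 counts in at least 1 control of day 28, so the low-count filter bears on them. Cd74, the invariant chain of MHC class II, stood at 3910, 1350, 2900 and 171 CPM and in the controls at 48.6, 19.7, 3.04 and 5.4 CPM (log2FC 7.1, SE 1.13, FDR 8.11e-05; 7.73 without D844). Ciita, the transcriptional master regulator of class II genes, rose from between 0.0732 and 1 CPM to 60.1, 22.5, 55.2 and 2.48 CPM. H2-K1, the class I heavy chain that shows the OVA peptide, stood at 1250, 530, 1240 and 127 CPM against 65.2, 42, 19.3 and 25.3 CPM (log2FC 4.44, SE 0.72). B2m, the class I light chain, reached 2180 CPM (log2FC 3.63). Salmon divides reads between similar transcripts, so single H2, Gbp and Ly6 family members are less certain than their sums.

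All 24 interferon-gamma response genes were increased with all mice, without D844, without D845 and in either batch alone (median log2FC 3.86, and 4.35 without D844). Of these, Cxcl10, Cxcl9, Nlrc5 and Socs1 were below 15 counts in at least 1 control of day 28, so the low-count filter bears on them. The chemokine gene Cxcl9 stood at 131, 48.8, 97.5 and 3.24 CPM against 3.69, 1.6, 0.0732 and 0.275 CPM, with D844 inside the control range and a log2FC of 5.79 (6.39 without D844). Irf1, a transcription factor gene induced by interferon-gamma, reached 113, 51.6, 98.3 and 11.6 CPM against 3.77 to 8.74 CPM (log2FC 3.6, SE 0.71, FDR 0.000422). Nlrc5, the regulator of class I genes, changed by 4.77, Tap1, which carries peptides to class I molecules, by 4.46, and Psmb8, a subunit of the immunoproteasome, by 4.52. The 15 type I interferon response genes were also all increased (median 2.89), but D844 lay within the control range for 13 of them and without D845 only 7 were called. Ifit1 stood at 21, 13.7, 60.3 and 5.55 CPM against 10.2, 6.22, 1.65 and 1.97 CPM (log2FC 2.38, FDR 0.0137), and was not called without D845 (1.43, FDR 0.206) or without the control D705 (2.09, FDR 0.0537). Both batch 2 controls stood above both batch 1 controls for Ifit1, Irf1, Cd74 and H2-K1 (the labels do not say what the batches are). Of the STAT genes, Stat2 (log2FC 1.22), Stat3 (1.24) and Stat4 (6.11) were increased. Stat2 was not called without D845 (0.99, FDR 0.0782) or without D661 (1, FDR 0.0507).

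To show the sequence in front of interferon-gamma response genes, promoter windows of 300 bases (250 before and 50 after the transcription start) were read from RefSeq on GRCm38.p6 and searched on both strands for the interferon-gamma activated site TTCNNNGAA (GAS), to which STAT dimers bind, and for a form of the interferon-stimulated response element, GAAA repeated with 2 bases of any kind between (ISRE-like). The counts were made on GENCODE M29, a later build, so windows were joined by gene symbol, which gave 14810 windows of 11563 genes. In the 4 examples, 250 bases before the start are shown on the plus strand, with GAS and ISRE-like matches on either strand in capitals. They were chosen by largest log2FC among increased genes of this list and the MHC class I list with matches before the start. Genes of a single chromosome were left out of this choice.

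Gbp2 (guanylate-binding protein, chr3:142620413-142620662): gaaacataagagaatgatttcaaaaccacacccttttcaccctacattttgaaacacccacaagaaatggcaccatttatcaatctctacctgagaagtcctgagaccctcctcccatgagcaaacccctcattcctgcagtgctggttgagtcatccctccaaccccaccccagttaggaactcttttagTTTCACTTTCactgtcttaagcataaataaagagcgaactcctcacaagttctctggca
Igtp (immunity-related GTPase, chr11:58199306-58199555): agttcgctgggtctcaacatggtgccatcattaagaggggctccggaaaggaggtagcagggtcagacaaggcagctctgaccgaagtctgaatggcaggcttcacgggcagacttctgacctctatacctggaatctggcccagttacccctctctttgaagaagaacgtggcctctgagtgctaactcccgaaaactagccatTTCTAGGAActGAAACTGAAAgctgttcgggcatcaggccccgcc
Psmb8 (immunoproteasome subunit, chr17:34197945-34198194): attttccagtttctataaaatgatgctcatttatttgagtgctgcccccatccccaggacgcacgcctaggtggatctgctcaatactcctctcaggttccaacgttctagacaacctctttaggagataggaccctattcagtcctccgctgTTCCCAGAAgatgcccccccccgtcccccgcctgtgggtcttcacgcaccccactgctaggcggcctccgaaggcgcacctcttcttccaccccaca
Gbp5 (guanylate-binding protein, chr3:142496684-142496933): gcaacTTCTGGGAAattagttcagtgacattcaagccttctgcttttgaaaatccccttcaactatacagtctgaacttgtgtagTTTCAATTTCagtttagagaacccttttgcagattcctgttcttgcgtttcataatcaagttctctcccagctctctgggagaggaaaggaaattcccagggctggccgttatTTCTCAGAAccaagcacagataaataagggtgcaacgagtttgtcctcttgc

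Gbp2 held 0 GAS and 1 ISRE-like match, Igtp 1 of each, Psmb8 1 GAS and 0 ISRE-like, and Gbp5 2 GAS and 1 ISRE-like. Their levels in the rAAV-OVA mice were 494, 178, 364 and 27.7 CPM for Gbp2 (log2FC 4.99) and 135, 52.8, 121 and 7.41 CPM for Gbp5 (4.38). Among all 32851 promoter windows of the reference, 8.3% held a GAS and 3.44% an ISRE-like match. The shares were 8.16% and 6.9% for increased genes, 5.47% and 2.67% for decreased genes and 6.53% and 2.41% for genes not called. Of 23 windows of the interferon-gamma response list 30.4% held a GAS and 43.5% an ISRE-like match, and of 12 windows of the type I interferon list 25% and 50%. The 6 windows of MHC class II genes held neither. A match shows only that the letters are present.

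Of 15 complement genes 13 were increased (median log2FC 3.33) with all mice and 13 without D844 (3.74). C3, the component on which all pathways meet, stood at 834, 460, 2030 and 57.7 CPM against 4.85, 18.2, 1.43 and 4.35 CPM (log2FC 6.92, SE 1.2, FDR 0.00014). Cfb, the alternative pathway protease, stood at 136, 67.9, 172 and 3.21 CPM and at 0.847 CPM or less in the controls (log2FC 7.82). The classical pathway rose from C1qa (783, 345, 653 and 115 CPM against 48.5 to 60.1 CPM, log2FC 3.07) through C1s1 (6.04) to C4b (3.34). The membrane inhibitors Cd55 and Cd59a had log2FC of -0.04 and 0.42 (0.07 and 0.67 without D844) and were not called in either.

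**Figure D2:**
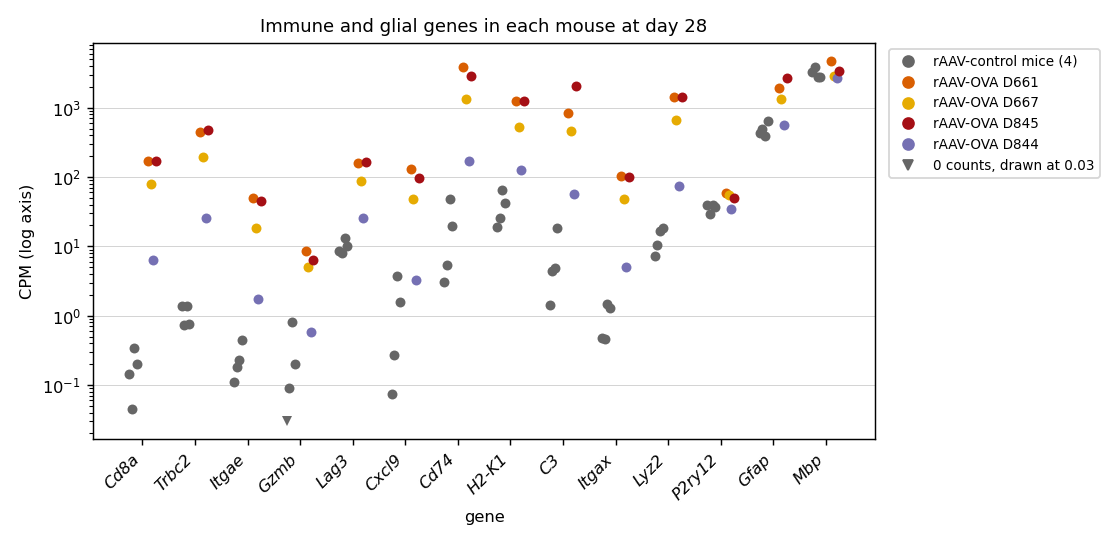
CPM (log axis) of 14 immune and glial genes, 1 point per mouse, with rAAV-control mice in grey and each rAAV-OVA mouse in its own colour. Cd8a, Trbc2 and Itgae separate all rAAV-OVA mice from the controls, D844 falls among the controls for Gzmb and Cxcl9, and P2ry12 (29.3 to 58.4 CPM) and Mbp (2650 to 4760 CPM) overlap.

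Microglial genes did not move as a block. Of 12 genes of homeostatic microglia 8 were increased, 1 decreased and 3 not called (median log2FC 1.38, and 1.69 without D844, where 9 were increased). Cx3cr1, the fractalkine receptor, stood at 249, 177, 253 and 85.7 CPM against 50.8 to 73.3 CPM (log2FC 1.59, SE 0.26, FDR 9.42e-05), and Tmem119 at 96.1, 62.1, 80.6 and 33.1 CPM against 22.6 to 27.9 CPM (1.37). The microglial transcription factor gene Sall1 was increased (0.9). P2ry12, the receptor by which resting microglia sense ADP, stood at 58.4, 54.6, 49 and 34.5 CPM against 29.3 to 40.1 CPM, a log2FC of 0.42 that was not called (FDR 0.0935), and Siglech had 0.38 (FDR 0.195). Fcrls, listed under the symbol Fcrl2 and matched by identifier, was the decreased member, at 10.5, 15.4, 13.1 and 20 CPM against 19.5, 28.2, 28 and 26.7 CPM (log2FC -0.78, FDR 0.04; -0.95 without D844). This call was lost without D845 (-0.7, FDR 0.134), in batch 2 alone (-0.47, FDR 0.335) and on leaving out any other mouse but D843 and D844 (FDR 0.0615 to 0.145).

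Of 20 genes of disease-associated microglia 18 were increased with all mice and without D844 (median log2FC 2.33 and 2.68). Among these, Ch25h, Clec7a, Cst7 and Itgax were below 15 counts in at least 1 control of day 28. The lectin receptor gene Clec7a stood at 138, 71.7, 112 and 6.48 CPM against 0.293 to 2.12 CPM (log2FC 5.98). Itgax, which encodes CD11c (6.14), and the cystatin gene Cst7 (6.29) had the largest changes, and the filter on low counts bears on both. Apoe, the lipid carrier of glia, was the most abundant member, at 4950, 3440, 6030 and 2330 CPM against 1150 to 1510 CPM (log2FC 1.68, SE 0.23, FDR 2.81e-05). Trem2, the receptor on which this state depends, rose by 2.2, and Spp1, osteopontin, by 2.93. Lpl and Igf1 were the 2 members not called, with log2FC of -0.15 each (0.12 and 0.18 without D844) and values of 24 to 52.1 CPM and 3.41 to 12.1 CPM over the 8 mice.

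Of 15 genes of monocytes and macrophages 11 were increased, 1 decreased and 3 not called, which only describes the genes listed, since 8 were below 15 counts in at least 1 control. Ccr2, the receptor that brings monocytes into tissue, stood at 21.1, 10.8, 23.9 and 1.14 CPM against 0 to 0.602 CPM (log2FC 5.82, SE 0.84). Lyz2, lysozyme, reached 1450, 669, 1420 and 73.8 CPM against 7.35 to 18.5 CPM (5.98), and the NADPH oxidase gene Cybb rose by 6.43. Ly6c2, of inflammatory monocytes, stood at 29.7, 11, 18.4 and 0.31 CPM, so that D844 lay inside the control range of 0.281 to 0.412 CPM. Genes that macrophages at the brain's borders express differed among themselves. Lyve1 was decreased (log2FC -1.5, FDR 0.0185, at 1.14 CPM or less; -1.08 and FDR 0.0788 without D661, -1.29 and FDR 0.0602 without D851), Cd163 had a log2FC of -0.17, and Mrc1, increased by 1.36, stood at 4.41, 6.8, 21.9 and 4.34 CPM against 2.6 to 4.99 CPM and was not called without D845 (0.45, FDR 0.317). Lysosomal and phagocytic genes were increased for 14 of 15 members (median 1.85) and for all 15 without D844, led in level by Ctsd (2740, 1490, 2220 and 523 CPM against 345 to 445 CPM, log2FC 2.09). Cd68, the lysosomal membrane protein of phagocytes, rose by 3.02 and Ctss, which trims the invariant chain, by 3.16.

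Reactive astrocyte genes were increased for 16 of 19 members (median log2FC 2.65), for 17 without D844 and for 11 without D845. Gfap, the intermediate filament of astrocytes, stood at 1910, 1350, 2670 and 554 CPM against 395, 648, 425 and 494 CPM in the controls. D844 lay inside the control range, and the log2FC was 1.72 (SE 0.45, FDR 0.00402) with all mice and 2.07 (SE 0.43) without D844. Vim stood at 688, 356, 848 and 124 CPM against 35.7 to 80.7 CPM (3.25), and Serpina3n rose by 2.5 and Cd44 by 3.44. Lcn2 was not called with all mice (log2FC 3.24, FDR 0.0547), with control D851 at 8.42 CPM and the other controls at 0.32 CPM or less, and was called without D844 (3.9, FDR 0.0205).

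Genes of astrocyte homeostasis were increased for 3 of 14 members and decreased for 0 (median log2FC 0.17), and the same numbers were found without D844. These were Aqp4, the water channel of astrocyte endfeet (0.75), Slc1a3, a glutamate transporter (0.66), and the transcription factor gene Sox9 (0.82). Aqp4 was not called without D845 (0.56, FDR 0.075), and Slc1a3 lay at the fold limit and missed it without D661 (0.56). The main glutamate transporter gene Slc1a2 stood at 3990, 4290, 2800 and 3490 CPM against 3460 to 4660 CPM (log2FC -0.17, FDR 0.383), and glutamine synthetase, Glul, had a log2FC of -0.04. Of 15 oligodendrocyte genes and 7 genes of their precursors, 0 were called in either direction with all mice or without D844 (medians 0.14 and 0.15). Mbp, myelin basic protein, stood at 4760, 2820, 3410 and 2650 CPM and in the controls at 2730, 2730, 3220 and 3810 CPM (log2FC 0.13, SE 0.25), and Pdgfra, of precursors, at 52.9 to 73.9 CPM over all 8 mice.

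Of 12 genes of endothelium and leukocyte adhesion 6 were increased with all mice, 6 without D844 and 5 without D845. Icam1, an adhesion molecule that binds T cell integrins, had the largest change (log2FC 3.86). Vwf, raised most in D845, followed (2.48), and Vcam1, a further adhesion molecule, stood at 210, 134, 299 and 52.2 CPM against 32.3 to 45.4 CPM (2.17, FDR 0.000152). Cldn5, of endothelial tight junctions, was increased (42.4, 38.8, 65.4 and 39.7 CPM against 13.7 to 31.1 CPM, log2FC 1.06). Extracellular matrix genes depended on D845: 10 of 16 were increased with all mice (median 1.69), 13 without D844, 6 without D845 (0.44), 3 in batch 1 alone and 13 in batch 2 alone. Col1a1 stood at 9.79, 11.7, 119 and 12.6 CPM against 6.7 to 11.3 CPM (log2FC 1.78, and 0.35 with FDR 0.375 without D845), and Col3a1 at 5.25, 8.14, 80.9 and 7.62 CPM against 2.56 to 3.89 CPM.

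All 14 cell cycle genes were increased with all mice, without D844, without D845 and in either batch alone (median log2FC 3.03). Mki67 stood at 63, 30.5, 97.5 and 12.7 CPM against 1.72 to 2.97 CPM (log2FC 4.55, SE 0.59, FDR 2.34e-05), and the topoisomerase gene Top2a rose by 4.13 and Foxm1, a driver of mitotic genes, by 2.31. Of 15 NF-kB genes 10 were increased with all mice (median 1.87) and 11 without D844. Nfkb2 stood at 51.4, 22.9, 71.3 and 6.52 CPM against 2.88 to 3.96 CPM (3.51), and Nfkb1 (2), Rel (2.32) and Rela (1.02) were increased. Of 7 FoxO, FoxN and FoxP genes 0 passed both limits with or without D844, and the largest change, Foxo1 at 0.56 (FDR 0.00417), did not reach the fold limit. Hif1a was increased by 0.67, and by less than the fold limit without D845 (0.55) or D661 (0.58), and Egr1 (-0.33) and Jun (0.05) were not called. Foxp3 was not among the genes analysed here.

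Of 20 pan-neuronal and synaptic genes 10 were decreased and 0 increased (median log2FC -0.65), 10 were decreased without D844 (-0.65), 2 without D845 (-0.45), 1 in batch 1 alone (-0.47) and 12 in batch 2 alone (-0.83). Snap25, of the synaptic vesicle fusion machinery, stood at 765, 1300, 634 and 1040 CPM and in the controls at 2070, 1900, 2030 and 1700 CPM (log2FC -1.05, SE 0.17, FDR 9.73e-05), without overlap. Rbfox3, which encodes NeuN, stood at 121, 150, 81.2 and 150 CPM against 205 to 243 CPM (-0.84, SE 0.14, FDR 0.000119; -0.85 without D844; -0.59 without D845, below the fold limit). The neurofilament gene Nefl had a log2FC of -0.75, and -0.51 without D845. Slc17a7, the vesicular glutamate transporter of excitatory neurons, stood at 798, 1240, 369 and 213 CPM against 1170 to 1440 CPM, so that D667 overlapped the controls (log2FC -1.11, and -0.71 without D844). Camk2a, the abundant kinase of excitatory synapses, stood at 3770, 3890, 1640 and 2550 CPM against 4380 to 5290 CPM (-0.71). It did not reach the fold limit without D844 (-0.61) or without D845 (-0.45, FDR 0.0597).

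CA1, the injected region, had 8 of 10 marker genes decreased with all mice (median log2FC -0.94). Without D844 6 were decreased (-0.72), without D845 6, in batch 1 alone 1 (-0.55) and in batch 2 alone 8 (-1.55). Neurod6 stood at 71.5, 122, 42.8 and 7.69 CPM against 188, 186, 173 and 120 CPM, with D667 inside the control range (log2FC -1.55, SE 0.4, FDR 0.00385; -1.01 without D844). The endoplasmic reticulum protein gene Wfs1, a marker of dorsal CA1, stood at 84.5, 78.4, 142 and 167 CPM against 207, 133, 218 and 178 CPM (-0.72, FDR 0.00998), and was not called without the control D705 (-0.55, FDR 0.0548), or without D661 (-0.64) or D667 (-0.61), where it missed the fold limit. Fibcd1 stood at 88.1, 150, 44.9 and 26.9 CPM against 124 to 154 CPM and was called with D844 (-0.87) and not without it (-0.46, FDR 0.173), nor without D845 (-0.58, FDR 0.214) or the control D851 (-0.77, FDR 0.0663). Pou3f1, a transcription factor gene, did not overlap (37.2, 43.6, 22.2 and 22.9 CPM against 54.7 to 65.7 CPM, -0.96), and Htr1a, the serotonin 1A receptor gene, had -0.68 with and -0.69 without D844, and was not called without D845 (-0.42, FDR 0.0597) or D661 (-0.61).

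**Figure D3:**
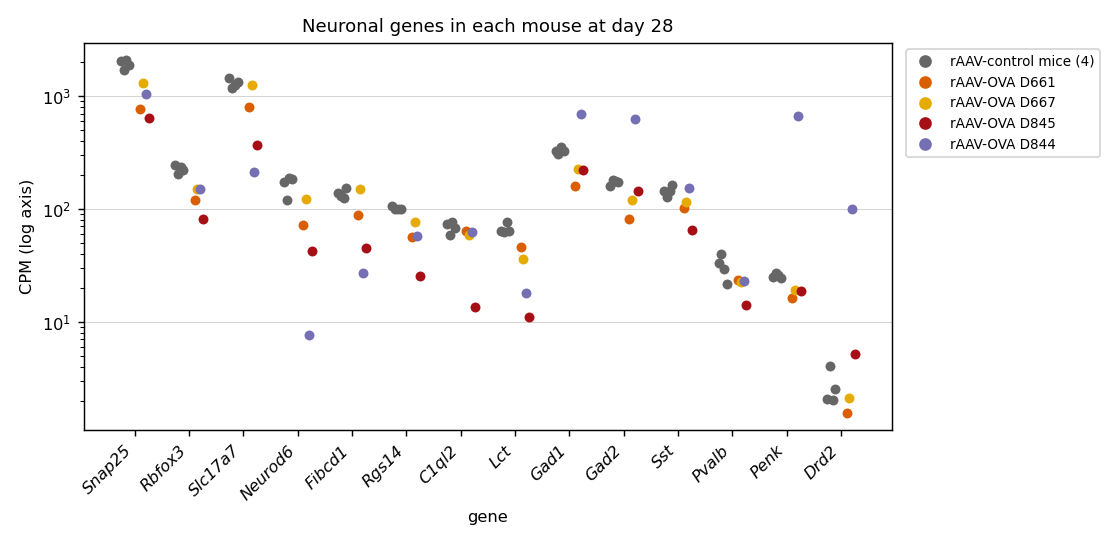
CPM (log axis) of 14 neuronal genes, 1 point per mouse, with rAAV-control mice in grey and each rAAV-OVA mouse in its own colour. Snap25 and Rbfox3 lie below the controls in every rAAV-OVA mouse, and D844 is lowest for Slc17a7 and Neurod6 and highest for Gad1, Gad2, Penk and Drd2.

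Markers of the other fields were tested in the same way. Of 11 CA2 and CA3 genes 1 was decreased, Rgs14, a regulator of plasticity in CA2 (56.3, 76.7, 25.4 and 58.2 CPM against 99 to 106 CPM, log2FC -0.92). Without D845 0 of the 11 were decreased and without D844 2 were, while batch 1 alone had 1 decreased, and batch 2 alone 2 decreased and 3 increased. Pcp4, also of CA2, stood at 53.3, 46.9, 48.1 and 278 CPM against 71.5 to 112 CPM, so that its log2FC was 0.36 with D844 and -0.78 (FDR 0.00417) without it. Of 9 dentate granule cell genes 4 were decreased with all mice, 3 without D844, 0 without D845, 0 in batch 1 alone and 6 in batch 2 alone. Prox1, the transcription factor of granule cells, stood at 94.1, 129, 43.5 and 98.1 CPM against 118 to 147 CPM (-0.55, FDR 0.137), and C1ql2 at 64.3, 59.4, 13.7 and 62.1 CPM against 59 to 76 CPM, low in D845 alone. Lct, with 45.7, 36, 11 and 18.1 CPM against 63 to 76.1 CPM, did not overlap (-1.29, FDR 0.00877; -0.9 and FDR 0.0819 without D845). Of 7 genes of newborn neurons 2 were increased and 1 decreased with all mice (median 0.04), and 1 and 1 without D844. Draxin was increased with and without D844 (1.27 and 1.21), Igfbpl1 with all mice (1.4) and not without D844 (0.89, FDR 0.0558), and Neurod1 was decreased (-0.94 and -0.78). Without D845 0 of the 7 were decreased, with Neurod1 at -0.59 (FDR 0.105), and in batch 1 alone 0 changed in either direction. Dcx, of migrating young neurons, was not called (-0.05, and -0.61 without D844) and stood at 8.75, 12, 9.6 and 35.6 CPM against 15.2 to 18.8 CPM. Of 5 mossy cell genes 2 were increased (median 0.54): Drd2, which rested on D844, and Calcrl, which endothelium also expresses (0.93, and 1.16 without D844, where it was the only one called and the median was -0.41). Calcrl stood at 10.3, 11.2, 27.9 and 8.79 CPM against 7.17 to 7.78 CPM, and was not called without D845 (0.44, below the fold limit) or in batch 1 alone (0.45, FDR 0.262), where 0 of the 5 were.

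Interneuron genes were called once among 15 with all mice and 4 times without D844 (medians -0.38 and -0.58), all decreased. Gad1, which makes GABA, stood at 159, 228, 223 and 692 CPM against 305 to 357 CPM, and its log2FC was -0.12 with D844 and -0.58 (FDR 0.00538) without it, short of the fold limit. Gad2 likewise changed from 0.25 to -0.47. Pvalb, of fast-spiking interneurons, was called without D844 only (-0.73, FDR 0.00505), and Sst had -0.55 (FDR 0.0503) without D844. Cck, which pyramidal neurons also express, was the gene called with all mice (128, 157, 86.3 and 39.7 CPM against 182 to 231 CPM, -1.04).

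Receptor genes for glutamate were decreased for 7 of 18 subunits with all mice (median log2FC -0.52), 10 without D844, 1 without D845, 0 in batch 1 alone and 9 in batch 2 alone. Grin2a, an NMDA receptor subunit, stood at 141, 335, 100 and 129 CPM against 395 to 441 CPM (log2FC -1.22, SE 0.28, FDR 0.00162), and the AMPA receptor subunit gene Gria2 at 218, 414, 196 and 442 CPM against 469 to 621 CPM (-0.76; -0.48 without D845 and -0.65 without D661, both short of the fold limit). GABA-A receptor genes were decreased for 5 of 12 subunits with all mice (-0.47), 7 without D844 and 2 without D845. Batch 1 alone had 2 of these decreased, and batch 2 alone 6 decreased and 1 increased. Gabra5, of extrasynaptic receptors in CA1, stood at 96.5, 159, 49.9 and 57.6 CPM against 165 to 192 CPM (-1.07, SE 0.21, FDR 0.000462). D667 was the rAAV-OVA mouse nearest to the controls for Grin2a and Gabra5.

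The 10 largest decreases at a mean of at least 5 CPM without overlap were Rxfp1, Robo3, Col19a1, Kcnk4, Kcnh7, Miat, Mfsd4a, Car7, Crhbp and Gpr63. The potassium channel gene Kcnh7 stood at 15.8, 32.5, 21.9 and 20.5 CPM against 54 to 75.7 CPM (log2FC -1.59, SE 0.23, FDR 4.11e-05; -1.43 without D844). Car7, a carbonic anhydrase of neurons that bears on the response to GABA, stood at 5.21, 5.81, 3.94 and 3.59 CPM against 10.5 to 14.4 CPM (-1.43, SE 0.17). The transporter gene Mfsd4a stood at 21.2, 30.6, 15.8 and 15.9 CPM against 52 to 70.4 CPM (-1.57), Kcnk4, a leak potassium channel gene, had -1.61, and Miat, a long noncoding RNA of neurons, -1.58. Rxfp1, the relaxin receptor gene, had -2.02 with all mice and was not called without D844 (-1.59, FDR 0.0728), nor without D661, D845, D843 or D705 (FDR 0.0521 to 0.0703). Robo3 (-1.83) was not called without D845 (-1.44, FDR 0.0572). By the same rule, 9 of the 10 increases and 7 of the 10 decreases were also among the first 10 without D844.

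Of 18 genes that follow seizures and neuronal activity 2 were increased and 2 decreased with all mice (median log2FC -0.23), and 1 and 6 without D844 (median -0.57). The mean log2(CPM + 1) of the list minus the control mean was -0.51, -0.49 and -0.59 in D661, D667 and D845, and 1.04 in D844. Bdnf, a growth factor induced by activity, stood at 17.2, 25.2, 8.98 and 8.93 CPM against 43.3, 36.6, 37.7 and 26.1 CPM (log2FC -1.22, FDR 0.00242; -0.9 without D844). Pdyn, prodynorphin, rose in all 4 rAAV-OVA mice (49.1, 26.1, 32.8 and 109 CPM against 15.4 to 17.4 CPM, 1.69; 1.17 without D844). Penk was the other increased gene, and its log2FC of 2.39 became -0.45 without D844, and was not called without the control D843 or D851 (FDR 0.0616 and 0.0603). Of 9 injury response genes Atf3, a stress-induced transcription factor gene, was increased with and without D844 (12.1, 5.6, 10.6 and 4.79 CPM against 0.687 to 1.64 CPM, 2.81), and Ecel1 was increased with all mice (2.36) and not without D844 (0.23), nor without the control D843, D851 or D705. Ecel1 had a log2FC of 3.34 at day 5 (FDR 0.00328). Its difference between days 28 and 5 was -0.99 (FDR 0.665) with all mice, -3.15 (FDR 0.0211) without D844 and -4.64 (FDR 0.0301) in batch 1 alone.

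**Figure D4:**
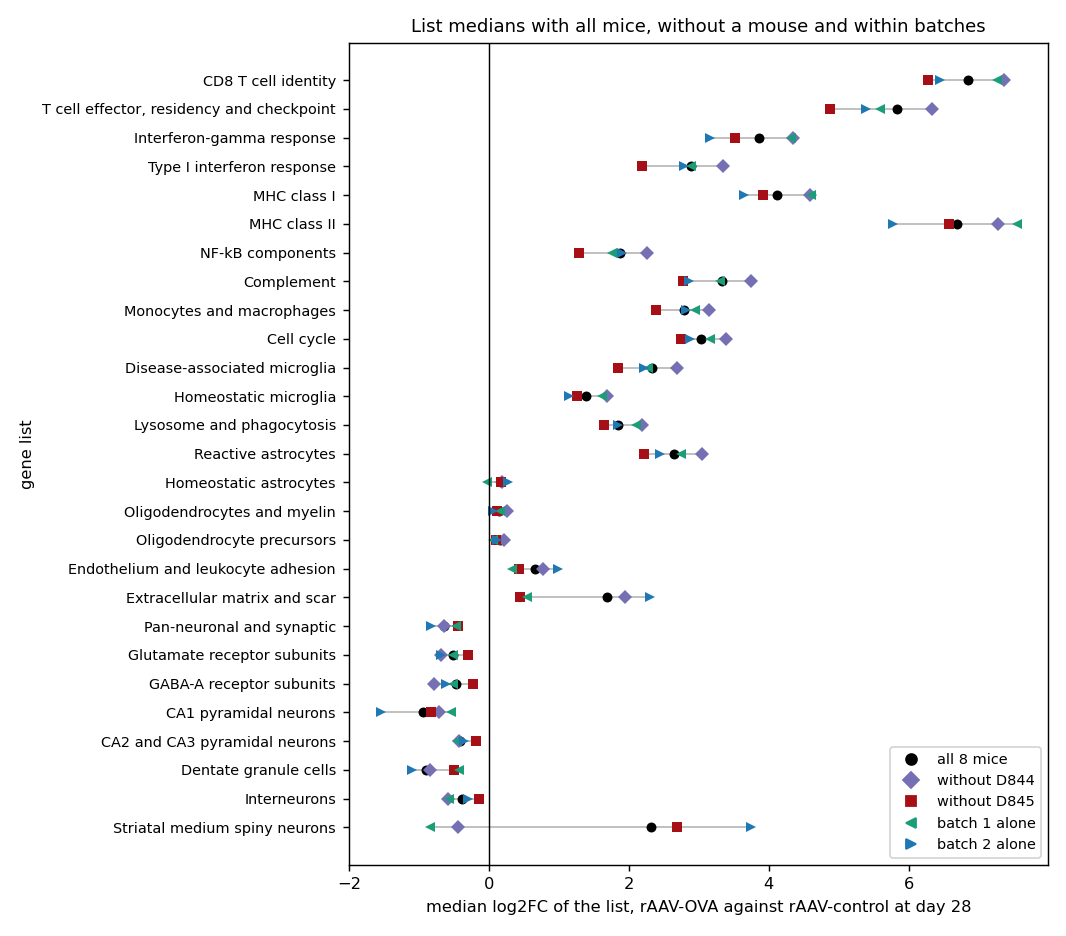
Median log2FC of each gene list at day 28 (rAAV-OVA against rAAV-control) with all 8 mice, without D844, without D845, in batch 1 alone and in batch 2 alone. The medians of both T cell lists and both MHC lists are at least 3.64 in each, the extracellular matrix median lies between 0.44 and 2.3, and the CA1 median between -0.55 and -1.55.

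The response at day 28 was set against those at days 5 and 8 as an interaction in the same model. All mice of days 5 and 8 belong to batch 1, so the batch 2 mice of day 28 have no counterpart there. Against day 5, 494 genes differed, 314 higher at day 28 (2.01%) and 180 lower (1.15%). In batch 1 mice alone 40 genes differed, 14 higher and 26 lower, and without D844 680 did. Against day 8, 0 genes passed edgeR's test (1980 at an unadjusted p under 0.05), 42 did without D844, all higher at day 28, and 0 in batch 1 alone (1056 at an unadjusted p under 0.05).

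Among the T cell, interferon and MHC genes, 0 passed the test of a difference between days 28 and 5 with all mice. Some estimates were large with wide SE: Gzmb had a difference of -3.64 (SE 1.51, FDR 0.166) and Itgae of 2.71 (SE 1.18, FDR 0.189). The list medians were 6.85 at day 28 and 5.14 at day 5 for CD8 T cell identity, 3.86 and 4.62 for the interferon-gamma response, 2.89 and 3.85 for type I interferon, and 6.69 and 5.89 for MHC class II. Without D844, 2 CD8 T cell identity genes, Lck (difference 2.02, FDR 0.0341) and Zap70 (1.52, FDR 0.0278), and the checkpoint gene Lag3 (2.55, FDR 0.0101) were higher at day 28. The genes that differed included glial ones. Apoe had a log2FC of -0.63 at day 5 and 1.68 at day 28 (difference 2.3, SE 0.32, FDR 0.00102), and in batch 1 mice alone the difference was 2.15 (FDR 0.0288). Spp1 went from 0.4 to 2.93 (difference 2.53, FDR 0.0286; 2.44 and FDR 0.0885 in batch 1 alone), the microglial receptor gene Gpr34 from -1.08 to 0.69 (called at day 28 without D844, at 0.89), and Fcrls from -2.45 to -0.78. In astrocytes, Gja1, the gap junction protein connexin 43, went from -0.95 to 0.35 (difference 1.3, FDR 0.00194), and Glul from -0.96 to -0.04 (0.93, FDR 0.00681). In batch 1 alone neither passed the test (FDR 0.102 and 0.161). Cldn5, of endothelium, went from -0.47 to 1.06 (FDR 0.0155, and 0.0683 in batch 1 alone).

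Seizure and activity genes differed the other way. Inhba, an activity-induced TGF-beta family gene, had a log2FC of 3.43 at day 5 and 0.17 at day 28 (-0.2 without D844; difference -3.26, SE 0.5, FDR 0.00146), and -3.26 (FDR 0.0301) in batch 1 alone. Nptx2, which clusters AMPA receptors, went from 2.53 to -0.45 (-2.98; -2.85 and FDR 0.0403 in batch 1 alone). Bdnf went from 0.76 to -1.22 (-1.99, FDR 0.00875), with -1.35 and FDR 0.133 in batch 1 alone. Of the 18 genes 5 were lower at day 28 than at day 5 with all mice, 10 without D844 and 3 in batch 1 alone, and 0 were higher. Of 20 pan-neuronal genes 1, the neurofilament gene Nefm, passed the test of a difference between these days (-0.9, FDR 0.0187), and 0 of 10 CA1 genes did.

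**Figure D5:**
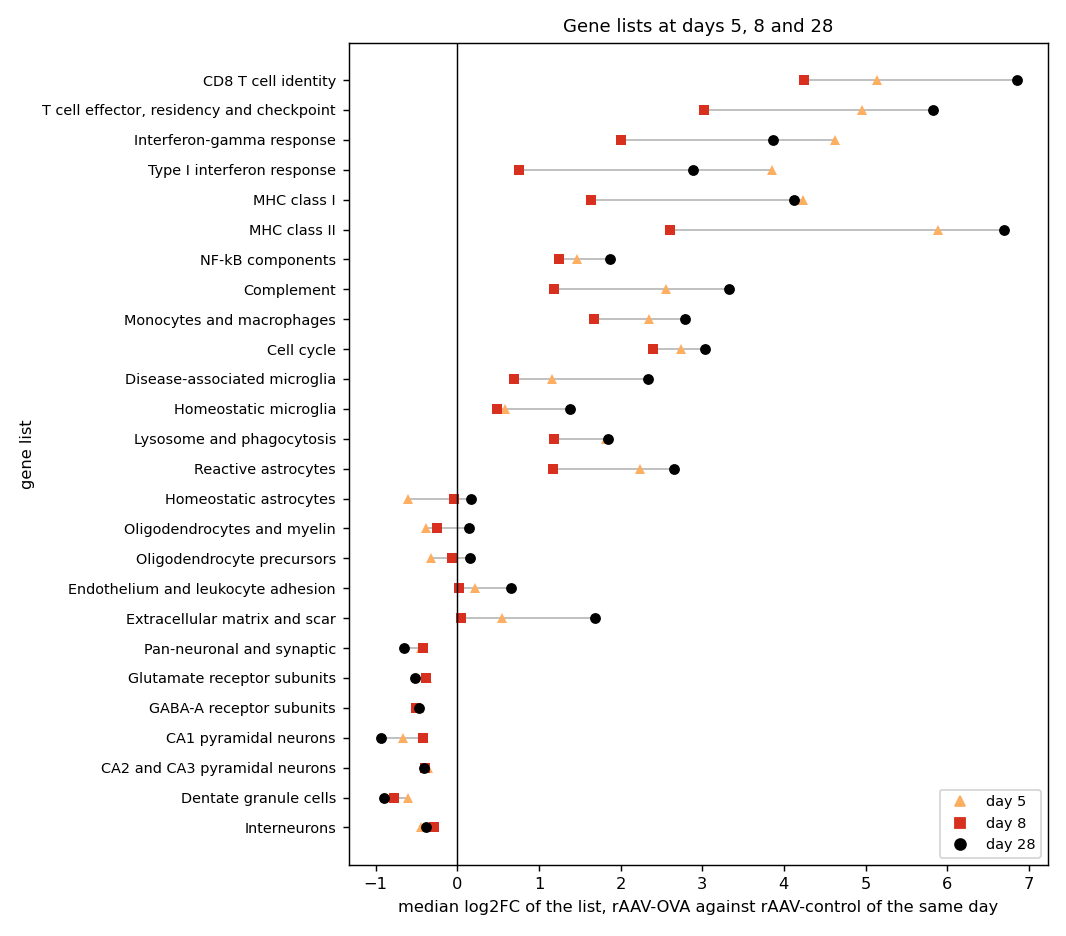
Median log2FC of each gene list, rAAV-OVA against rAAV-control of the same day, at days 5, 8 and 28. CD8 T cell identity lies at 5.14, 4.25 and 6.85, type I interferon at 3.85, 0.76 and 2.89, and CA1 at -0.66, -0.42 and -0.94.

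Whether the response differed between the 2 batches of day 28 depended on the fit. It differed in 665 genes, 380 higher and 285 lower in batch 2, and in 1059 without D844, 308 higher and 751 lower, where D845 is the lone rAAV-OVA mouse of batch 2. It differed in 0 genes when the spread was estimated from all the mice of day 28 alone (831 at an unadjusted p under 0.05). Among the genes lower in batch 2 were Slc17a7, with a log2FC difference of -1.83, Neurod6 (-2.17), Grin2a (-1.52) and Bdnf (-1.78). Col1a1 (2.56) and Col3a1 (2.88) were higher in batch 2. Cd8a had a log2FC of 9.95 in batch 1 and 8.42 in batch 2 (FDR of the difference 0.704), and the differences of C3 (0.55, FDR 0.906) and Cd74 (-1.96, FDR 0.519) did not pass the test either. Each group and batch holds 2 mice, and in batch 2 the rAAV-OVA mice are D844 and D845, so batch and mouse cannot be told apart.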

How the data were processed

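RNA of the left hippocampus was sequenced with TruSeq mRNA libraries on a NovaSeq instrument. The authors ran fastp on the reads, quantified transcripts of GENCODE M29 with Salmon (corrected for GC content), and obtained gene values with tximeta. The deposited values are estimated counts, whole and not normalized, of genes that reached 15 counts in 15 or more of 31 mice. The submitters' processing notes name Salmon 1.8.0 and DESeq2 1.36.0. The same counts were deposited in 2 tables, between which 0 cells differed, and 0 sample columns were left unused.

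The deposited expected counts were tested by quasi-likelihood in edgeR 4.0.16 under R 4.3.3, with TMM scaling and robust estimates of dispersion, in a model of 8 groups and the batch label over all 31 mice, which share an estimate of the spread. The day 28 contrast, its differences from days 5 and 8 and its difference between batches came from such models. The limits for a DEG were an FDR of 0.05 and a log2FC of 0.66 in size (1.58-fold), and the SE was derived from the F statistic. CPM used TMM library sizes. No 2 mice of a group agreed within sampling noise: the variance between them was at least 11.9 times the counting variance. Totals ran from 22523788 to 28917226 counts, so counting error weighs most on genes under 1 CPM. Each library came from a separate mouse, so p-values measure a spread between mice, pooled over the 8 groups and not that of the day 28 mice alone.

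The genes named are the 10 largest increases and decreases among DEGs with a symbol, a mean of at least 5 CPM and no overlap, the 4 largest changes and 4 highest levels of each gene list, further list members whose role is described, and transcription factors the study names for this model. Some of these genes are not given here. The members and lists were chosen with earlier results of these data known, and the striatal list after the values of D844 were seen. Lists are described by counts and medians, with no test of a list. The alternatives were each batch alone, 2 surrogate variables (sva 3.50.0), no covariate, the day 28 mice alone, other scalings and filters, limma's voom (3.58.1), DESeq2 1.42.0 with and without ashr 2.2.63, and each mouse left out in turn. Combinations without D844 were chosen after seeing the data. The tests were run on simulated data first. Promoter windows came from RefSeq on GRCm38.p6, joined by symbol. The human samples of the study were not used here.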

Additional observations from a re-analysis of the deposited data

Results flagged for a closer look

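For 29 of 324 groups of 4 mice (162 genes named, in 2 groups each) the highest or lowest mouse lay far from the other 3 by Dixon's test, where chance flags about 1 in 20 groups. Of these, 9 were D845 and 8 D844. In D845 the values were Vwf 303 CPM, Col1a1 119, Col3a1 80.9, Cldn5 65.4, Calcrl 27.9, Mrc1 21.9 and Cd59a 9.53 CPM, all highest, and C1ql2 13.7 and Pvalb 14 CPM, both lowest. In D844 they were Gad1 692 CPM, Penk 668, Gad2 630, Pcp4 278, Drd2 99.9, Drd1 92.5, Ecel1 73.3 and Dcx 35.6 CPM, all highest. D667 was highest for Cd163 (1.9 CPM). Among control mice, D843 stood apart for Fcrls (19.5 CPM, lowest), Rela (20.7 CPM, highest) and Lct (76.1 CPM, highest), D851 for Lcn2 (8.42 CPM, highest) and Neurod1 (17.4 CPM, highest), D706 for Nefl (442 CPM, lowest), Pcp4 (112 CPM, highest), Cd163 (3.57 CPM, highest) and Jun (68 CPM, lowest), and D705 for Dcx (18.8 CPM, highest) and Stat3 (45.5 CPM, lowest).

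The response to OVA at day 28 differed between batches in 665 genes by an interaction term, and values are log2FC in batch 2 minus batch 1. Among the genes named, those with a lower value in batch 2 were Robo3 (-2.57), Neurod6 (-2.17), Fibcd1 (-1.98), Lct (-1.86), Col19a1 (-1.85), Slc17a7 (-1.83), Bdnf (-1.78), Crhbp (-1.61), Grin2a (-1.52), Neurod1 (-1.33), Gabra5 (-1.26), Pou3f1 (-1.01), Cck (-0.91) and Camk2a (-0.88). Higher in batch 2 were Ecel1 (4.94), Drd1 (4.83), Drd2 (4.61), Penk (4.29), Coch (3.86), Pcp4 (2.32) and Igfbpl1 (2.12), each highest in D844, and Col3a1 (2.88), Col1a1 (2.56) and Draxin (1.82), each highest in D845. With the mice of day 28 alone this test passed 0 genes.

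Between days 28 and 5 the response differed in 494 genes by an interaction term, with values as log2FC at day 28 minus day 5. Higher at day 28 were the glial genes Spp1 (2.53), Apoe (2.3), Gpr34 (1.77), Fcrls (1.67), Gja1 (1.3) and Glul (0.93), Draxin (2.03), endothelial Cldn5 (1.53) and the transcription factor gene Foxo1 (0.97). Lower were Inhba (-3.26), Nptx2 (-2.98), Robo3 (-2.59), Bdnf (-1.99), Sorcs3 (-1.16), Mfsd4a (-0.95), Nefm (-0.9) and Car7 (-0.85). Without D844, Robo3 (FDR 0.0555), Mfsd4a (FDR 0.0959) and Car7 (FDR 0.0809) did not pass this test. In batch 1 mice alone Apoe, Inhba and Nptx2 passed this test, as did Ecel1 (-4.64), which passed it also without D844 (-3.15) and not with all mice (-0.99).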

How the results depend on the processing

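No paired analysis was possible because no replicate name is shared between groups. Genes at day 28 that passed both limits numbered 3384, and 1965 in batch 1 alone, 1627 with the day 28 mice alone, 2103 with DESeq2, surrogate variables and ashr, 6403 with no fold limit, and 2165 (without D845) to 4275 (without D667) with 1 mouse left out. Increased genes (2430) were 1282 with the day 28 mice alone and 1860 to 2822 with 1 mouse left out. Decreased genes (954) were 246 in batch 1, 1489 in batch 2, 345 with the day 28 mice alone, 1452 with limma's voom, 433 with ashr, 549 without D844 and with surrogate variables, 2813 with no fold limit, and 305 to 1453 with 1 mouse left out. Increased DEGs were 71.8% of all DEGs, 78.5% with library totals, 78.2% with a minimum mean of 1 CPM, 63.8% with voom, 87.5% in batch 1 alone, 79.4% with ashr and 66% (without D667) to 85.9% (without D845) with 1 mouse left out. Increased genes of the glial lists (59) ranged from 49 to 62 with 1 mouse left out, and those of the vessel lists (16) from 11 to 19, with 7 in batch 1 and 7 with the day 28 mice alone. Decreased genes of the neuronal lists (39) were 6 in batch 1, 9 with the day 28 mice alone, 19 with ashr and 13 (without D845) to 49 (without D667) with 1 mouse left out. The difference from day 5 (494) was 967 with surrogate variables, 40 in batch 1 and 680 without D844, that from day 8 (0) was 42 without D844, and that between batches (665) was 0 with the day 28 mice alone and 1059 without D844.

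Among the genes named, 7 that passed the limits with all mice or under an alternative changed sign between them. Pcp4 (0.36) was -0.7 with voom and ranged from -0.78 (without D844) to 0.71 with 1 mouse left out, and without D844 -0.67 with surrogate variables, -0.78 with the day 28 mice alone, -0.82 with DESeq2, -0.82 with its size factors and -0.75 with library totals. Penk (2.39) was -0.54 in batch 1, -0.25 with voom and -0.45 (without D844) to 2.97 with 1 mouse left out, and in the same order without D844 -0.63, -0.48, -0.49, -0.49 and -0.42. Drd1 (2.31) was -1.09 in batch 1, -0.67 with voom and -0.73 (without D844) to 2.93 with 1 mouse left out, and without D844 -0.23, -0.75, -0.77, -0.77 and -0.69. Coch (1.07) was -1.58, Drd2 (2.66) -0.44 and Ecel1 (2.36) -1.01 in batch 1, and Rxfp1 (-2.02) was 0.38 without D844 with surrogate variables. Without D844, Pcp4, Penk and Drd1 lose its high values (278, 668 and 92.5 CPM). Batch 1 does not include D844, in which Coch, Drd2 and Ecel1 stood at 47.2, 99.9 and 73.3 CPM. Without D844 their log2FC was 0.07, 0.14 and 0.23. The cause of the other sign changes was not tested. With 2 mice per group and batch, values within a batch rest on a spread shared with all mice.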
